A study of Mus musculus with 6 samples.

Results

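Cytosolic ribosomal protein genes encode the proteins that, with ribosomal RNA, build the cytoplasmic ribosome. Here they were the rows of a deposited RNA-seq table annotated as protein-coding whose symbol starts with Rpl or Rps and a digit, together with Rplp0, Rplp1, Rplp2 and Rpsa. Kinase genes of the Rps6k family and symbols containing -ps were left out. The rule gave 84 of 20336 genes in the table: 50 large-subunit genes, 33 small-subunit genes and Rps19bp1, which matches the name rule but encodes a binding protein of Rps19 rather than a ribosomal protein. Fau, which encodes a ribosomal protein fused to a ubiquitin-like protein, has another symbol and is described with the related genes. The RNA was polyA RNA of large peritoneal macrophages, which reside in the abdominal cavity of the mouse and were sorted from lavage fluid 30 min after intraperitoneal infection with E. coli. There were 3 libraries from mice labelled PAC F/F (floxed control) and 3 from conditional PAC knockout mice; PAC is the proton-activated chloride channel, listed in the table as Tmem206. The genotype label of the knockout reads Cxcr3-PAC-/-, whereas the design text writes Cx3cr1 in that place, and no such driver is named for the control, so an effect of the driver cannot be told apart from one of the deletion. The labels give neither strain nor age nor sex of the mice. All 6 libraries came from infected mice, and uninfected cells were not analysed here. Whether each library is a separate mouse is not stated, so a p-value here reflects the spread between libraries alone, and that spread may be technical.

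The small subunit reads the mRNA and the large subunit joins the amino acids. Ribosomal protein mRNAs are among the most abundant of a cell, and most begin with a run of pyrimidines, the terminal oligopyrimidine (TOP) tract, through which mTORC1 and LARP1 control their translation and stability. In stimulated macrophages, as in other cells, this class of mRNA is regulated chiefly at translation. A polyA library measures the amount of mRNA and not its translation. Many ribosomal protein mRNAs have also been copied back into the genome, so that the mouse holds numerous processed pseudogenes and a few expressed retrogenes with nearly the same sequence as the parent gene.

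Total counts ranged from 15981530 to 20648832 per library. Tmem206 held 6.33, 12.2 and 8.16 CPM (normalised counts relative to the TMM-scaled library total) in control libraries 1 to 3 and 4.27, 6.13 and 5.49 CPM in knockout libraries 1 to 3. Every knockout value lay below every control value, giving a log2 fold change of -0.75 (standard error, SE, 0.31). A two-sided exact permutation test over the libraries gave p = 0.10 (no smaller p is possible with groups of 3), and edgeR's adjusted p was 0.997. The 12 markers of large peritoneal macrophages were all detected and summed to 51234 to 68725 CPM across the 6 libraries. In these bulk libraries a smaller number of cells of one type and less RNA per cell cannot be told apart.

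Ribosomal protein genes took up 2.87%, 2.75% and 3.42% of all counts in control libraries 1 to 3 and 3.34%, 3.10% and 3.30% in knockout libraries 1 to 3. The share averaged 3.02% ± 0.357 (SD, n = 3) in the control and 3.25% ± 0.131 (SD, n = 3) in the knockout. Control libraries 1 and 2 were the lowest and control library 3 was the highest of all 6, so the groups overlapped and the difference of 0.233 percentage points was smaller than the spread of the control. Large-subunit genes made up 1.54% to 1.90% of the counts in the control and 1.73% to 1.87% in the knockout. Small-subunit genes made up 1.21% to 1.52% in the control and 1.37% to 1.499% in the knockout. Both subunits therefore ranked control library 2 lowest and control library 3 highest.

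**Figure D1:**
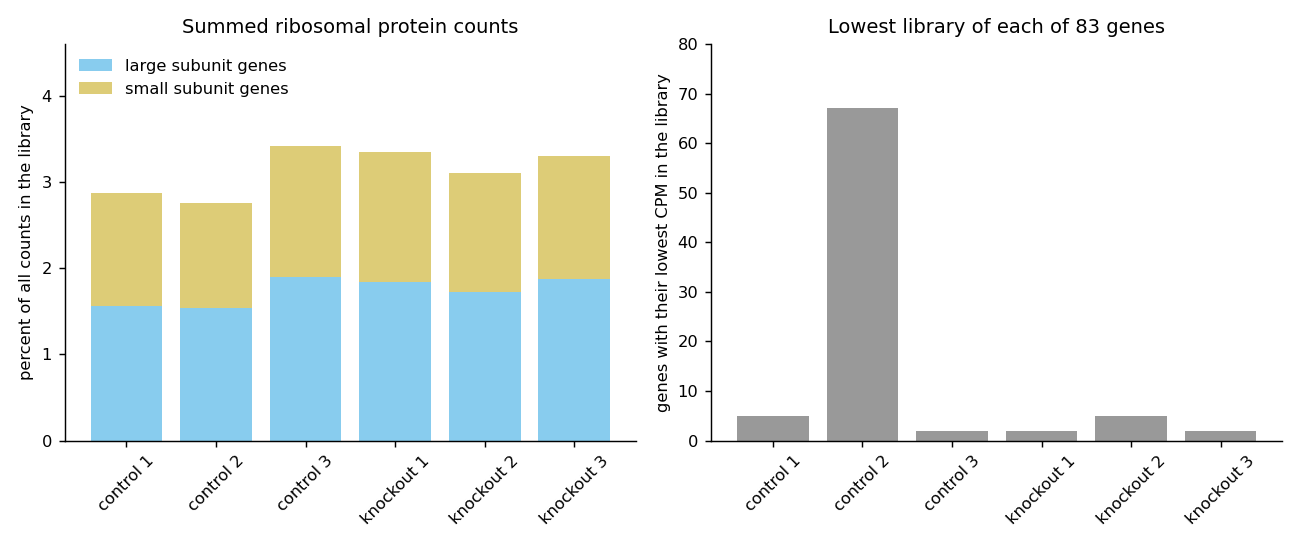
Left, percent of all counts in each library that fell in large-subunit and small-subunit genes, stacked. Right, the number of the 83 tested genes that had their lowest CPM in each library. Control library 2 has the smallest share, 2.75%, and holds the lowest value of 67 genes.

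Per length, these genes were among the abundant transcripts of the cells. The authors' FPKM, which scales counts to gene length and library size, had a median of 203 over the ribosomal protein genes and of 4.57 over all tested genes, and 63 of the 84 averaged above 100 FPKM over the 6 libraries. Rplp1, which encodes an acidic protein of the stalk that recruits elongation factors, had the highest mean with 1673 FPKM. It was followed by Rps3a1 at 925 FPKM, a small-subunit protein at the platform where initiation factors bind, and by Rplp0, the base of the stalk, at 781 FPKM. Rps15 and Rpl4 followed at 723 and 626 FPKM. Over the 6 libraries Rps3a1 spanned 629 to 1172 FPKM and Rplp0 spanned 684 to 847 FPKM, so these neighbours in the order did not separate. The range of Rplp1, 1380 to 1880 FPKM, lay above both. The gene length can exceed that of the principal annotated transcript. It is 2053 bases for Rpl10 and 4685 bases for Rps19, whose transcripts have 855 and 774 bases. For Rplp1 and Rps3a1 both lengths are equal, at 499 and 977 bases. The order by FPKM thus depends on the annotated length as well as on the counts.

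At the other end of the order were Rpl36al at 0.647 FPKM, Rps10 at 1.07 FPKM, Rpl24 at 1.98 FPKM, Rps19bp1 at 4.58 FPKM and Rpl13a at 7.24 FPKM, and the next tested gene was the paralog Rpl22l1 at 16.2 FPKM. Rpl24, Rps10 and Rpl13a encode core proteins of the ribosome. In the GENCODE M21 annotation of GRCm38, 47.0% of the exon bases of Rpl24, 35.4% of those of Rpl13a, 24.5% of those of Rpl36al and 20.6% of those of Rps10 also belong to another gene on the same strand. Those 4 were the tested genes with more than 15% overlap on the same strand, a limit chosen after the values were seen. Of the other tested genes the highest same-strand overlap was 14.5%, and 55 had none. With both strands counted the overlap reached 66.2% for Rpl35 and 62.3% for Rpl23a, and it passed 15% for further genes such as Rpl5 (26.7%). The strand setting of the counting is not stated. Rps10 had 7 to 63 counts per library, while the row of its near copy Rps10-ps2 had 1645 to 2768 counts. The sources do not say how overlapping genes were counted, and the part of the overlap in these low values was not tested. Rpl39l, a paralog of Rpl39 known from testis, had 0, 0.580 and 0.421 CPM in the control and 0.178, 0 and 0 CPM in the knockout and was the only one of the 84 genes that failed edgeR's expression filter.

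Of the 83 ribosomal protein genes tested between the genotypes, 0 passed edgeR's quasi-likelihood test with Benjamini-Hochberg adjustment in either direction, as was the case for all 12786 genes (0% called higher, 0% called lower); the smallest adjusted p was 0.997. By the sign of the log2 fold change, 69 of the 83 genes (83.1%) had higher values in the knockout and 14 had lower values, against 48.8% higher and 51.2% lower among all genes. The median log2 fold change was 0.14 over the ribosomal protein genes and -0.01 over all genes. Large-subunit genes had a median of 0.14, with 39 higher and 10 lower, and small-subunit genes had a median of 0.10, with 29 higher and 4 lower. The differences were small, and for 45 of the 83 genes the SE exceeded the size of the log2 fold change. An unadjusted p under 0.05 was reached by 4 genes with higher values (4.82%) and by 1 with lower values (1.2%), where 2.09% of all genes stood in each direction. The groups did not overlap for 5 genes with higher values, Rpl26, Rpl31, Rpl41, Rps12 and Rps27rt (6.02%, against 4.47% of all genes), and for Rpl23a with lower values (1.2%, against 4.86%). DESeq2 and edgeR without an expression filter each called 1 of these genes, Rpl41, whereas limma-voom called 0.

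The direction counts changed most without control library 2, when 51 of 83 genes were higher and the median log2 fold change was 0.04. Without control library 1 the median was 0.14, with 75 of 83 genes higher. Without control library 3 it was 0.24, with 76 of 83 genes higher, and 5 genes passed the test with edgeR adjusted p-values of 0.0107 to 0.0448: Rps27rt, Rps29, Rpl30, Rps28 and Rpl37. In that fit 0.0603% of all genes were called higher and 0.0754% lower. Leaving out any of the knockout libraries kept the median between 0.10 and 0.16.

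**Figure D2:**
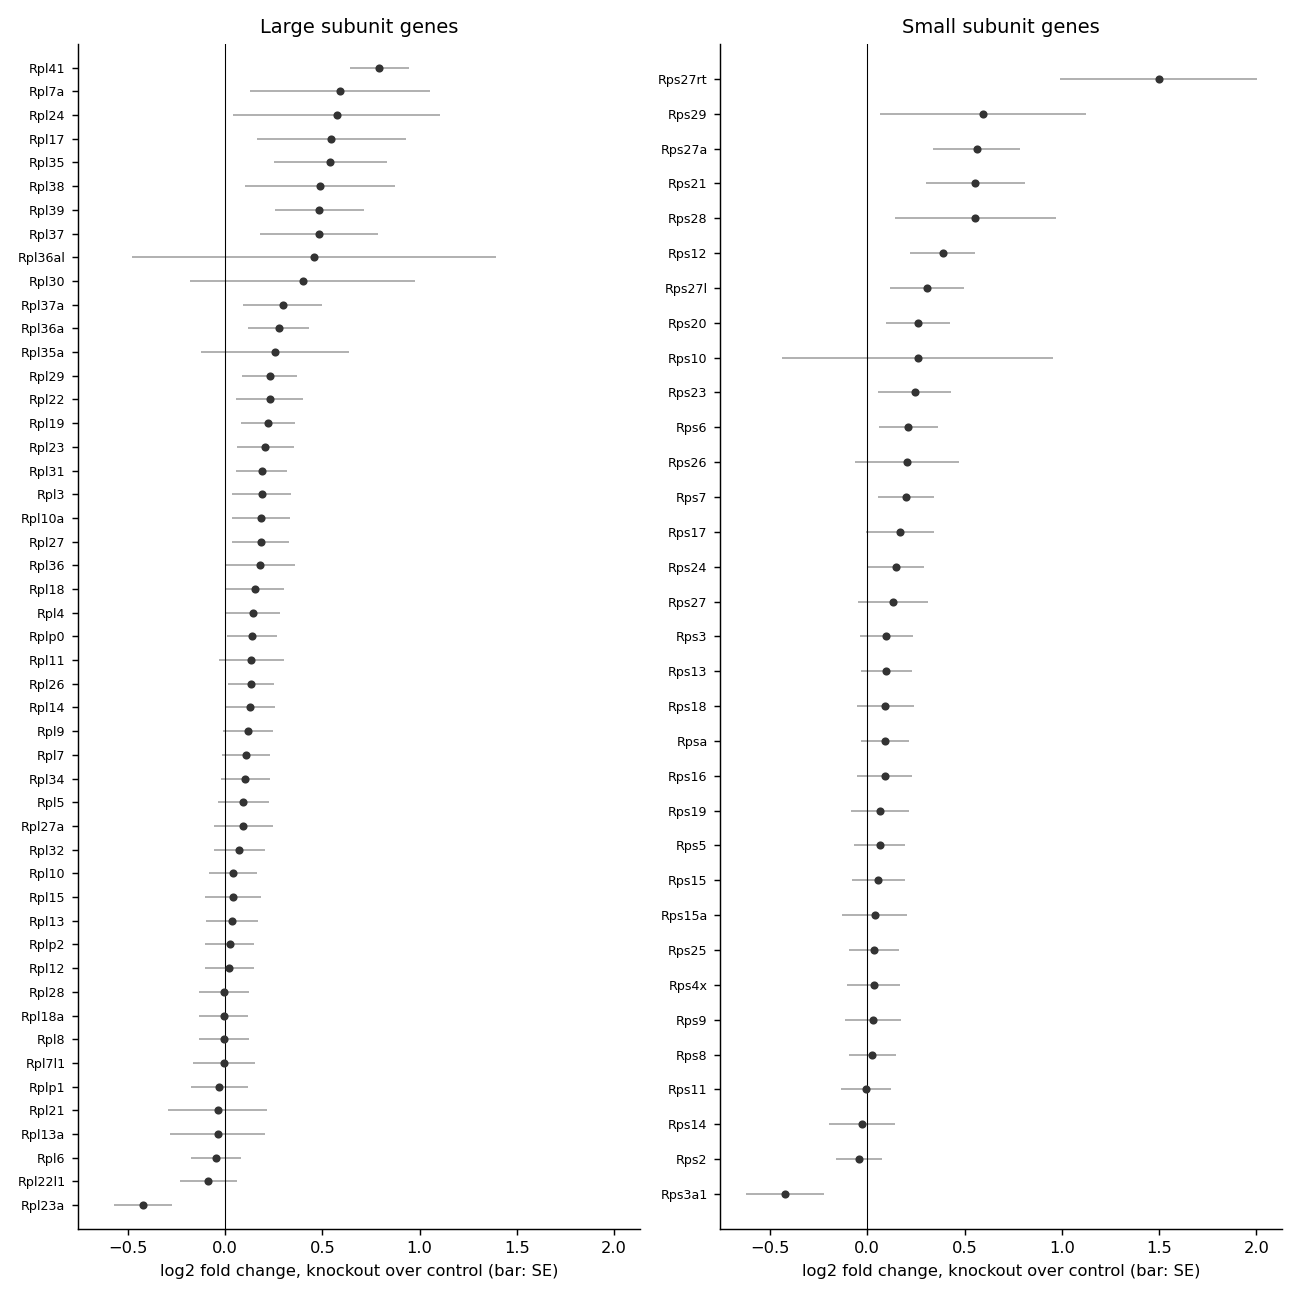
Log2 fold change of knockout over control (x axis, log2 units) for each tested large-subunit gene (left) and small-subunit gene (right), ordered by value, with bars of 1 SE. Most points lie slightly above 0, and the bars of 45 of the 83 tested genes (Rps19bp1 is not drawn) are longer than the distance of the point from 0.

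The order of the libraries did not follow the genotypes. On the scale of log2(CPM + 0.5), each gene's deviation from its own mean over the 6 libraries had a median of -0.06, -0.27 and 0.14 in control libraries 1 to 3 and of 0.09, 0.02 and 0.12 in knockout libraries 1 to 3. Control library 2 held the lowest value of 67 of the 83 genes and the highest of 0. Control library 3 lay above both other controls for 63 genes, above every knockout for 35 and within the range of the knockouts for 41. Every knockout library lay above control libraries 1 and 2 for 44 genes. These counts were made for ribosomal protein genes alone, so no share over all genes stands beside them. The median deviation of the 11235 other protein-coding genes tested ranged from -0.005 to 0.016 over the 6 libraries. Over the counts of all genes the place of control library 3 was similar only in part. Its chi-square per gene was 25.3 against knockout library 3, the smallest of all 15 pairs of libraries. It was 30.3 and 38.0 against knockout libraries 1 and 2, and 61.0 and 37.4 against control libraries 1 and 2. Control library 2 had no smaller value than this 37.4 against any library. This measure weights abundant genes most and grows with depth. The control group thus held both the library with the lowest and the one with the highest ribosomal protein mRNA.

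Markers of other cell types also differed between the libraries. The 12 B cell markers, all in the table and 11 of them tested, summed to 81.2, 522 and 44.8 CPM in control libraries 1 to 3 and to 299, 68.4 and 134 CPM in knockout libraries 1 to 3. Control library 2 had the highest sum and control library 3 the lowest, the reverse of their places for ribosomal protein genes. Knockout library 1 had the second highest B cell sum with a ribosomal protein share of 3.34%. Of the 11 tested B cell markers, 10 had lower values in the knockout and 1 had a higher one, and the median log2 fold change was -0.36. The B cell marker at 0 was Vpreb3, in knockout library 1. The macrophage markers summed to 58589, 51234 and 68725 CPM in control libraries 1 to 3 and to 61026, 64201 and 62596 CPM in knockout libraries 1 to 3. Within the control the order of these sums was that of the ribosomal protein share, and within the knockout it was the reverse. Most of each sum was Lyz2, at 30045 to 41540 CPM over the 6 libraries. Within the control Lyz2, Alox15, F5, Itgam and Adgre1 had the order of the sum. Timd4 and Csf1r had the reverse order there, and the remaining macrophage markers had other orders. The 8 mast cell markers, of which 6 were tested, summed to 73.9, 56.7 and 147 CPM in the control and to 250, 171 and 140 CPM in the knockout, so that control libraries 1 and 2 were lowest as they were for ribosomal protein genes. Most of that sum was Hdc, the histamine-forming enzyme, with 52.2 to 139 CPM in the control and 138 to 216 CPM in the knockout, while Cpa3 stayed at 1.22 to 6.40 CPM. Fcer1a was at 0 in 4 libraries, Ms4a2 in 4, Cma1 in 2, and Tpsb2 and Kit in 1 each. Markers of small peritoneal macrophages and monocytes (8 in the table, 7 tested) summed to 771 to 1075 CPM in the control and 573 to 1458 CPM in the knockout, a sum carried by the class II genes H2-Aa and H2-Ab1. Of the 7, 5 had lower values in the knockout and 2 had higher ones, and the median log2 fold change was -1.25. Ccr2, the chemokine receptor of monocytes, had 61.4, 122 and 54.4 CPM in the control and 20.5, 17.1 and 34.6 CPM in the knockout. Ccr2, Fcrls and Cd226 were each lower in every knockout library than in every control library, without passing the edgeR test. Neutrophil markers summed to 349 to 475 CPM over the 6 libraries, a sum carried by Csf3r (288 to 423 CPM) and Mmp9 (33.0 to 93.9 CPM). The other neutrophil markers, S100a8 and S100a9 among them, were at most 6.13 CPM in any library. The T and NK cell, erythroid and mesothelial or stromal sums were at most 8.37 CPM in any library. The part of other cells in the differences between libraries was not tested.

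**Figure D3:**
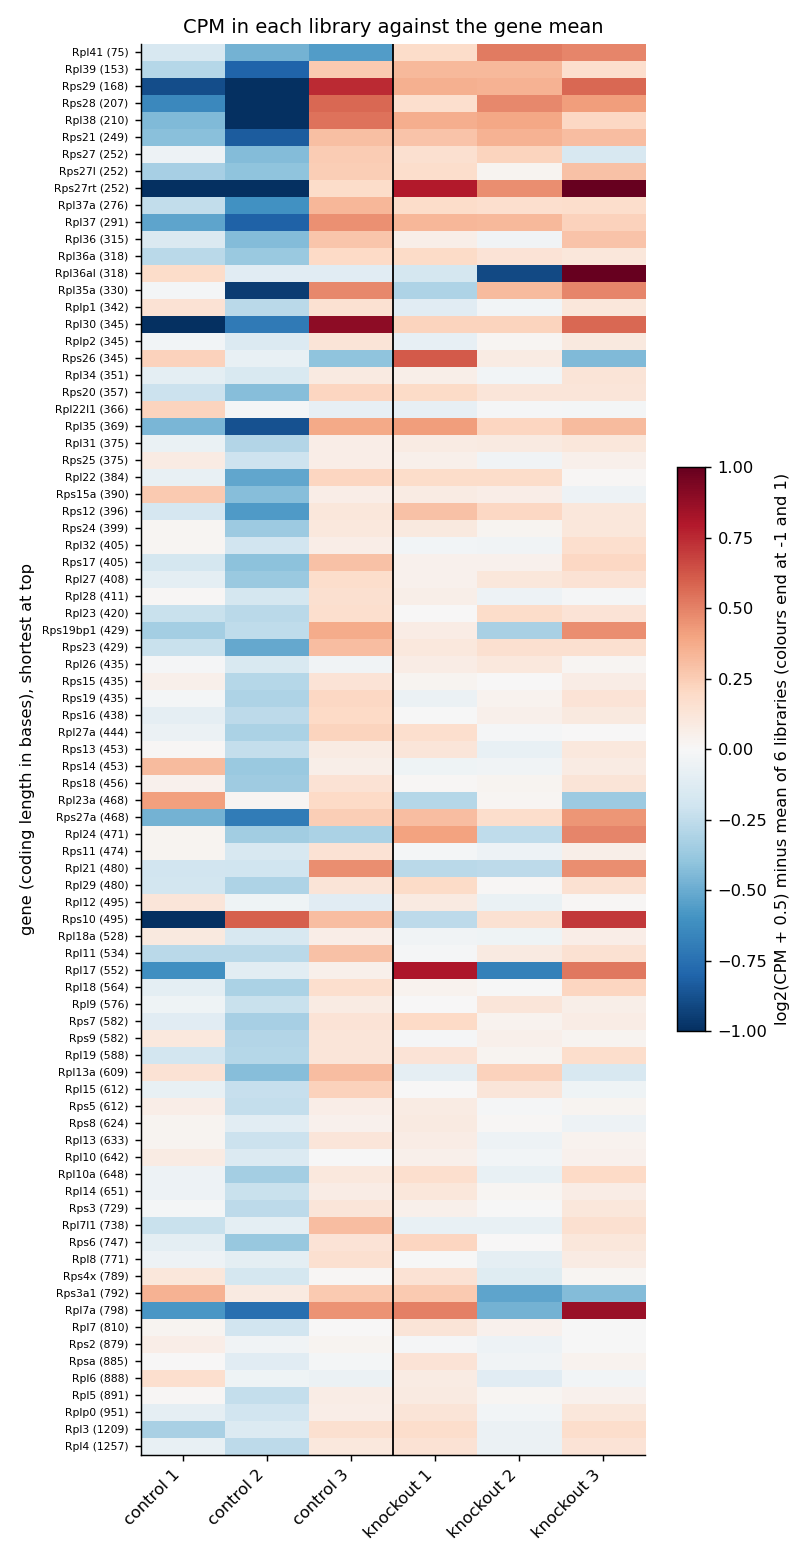
Deviation of each of the 83 tested genes from its own mean over 6 libraries, in log2(CPM + 0.5), with genes ordered by coding length (bases, in brackets) and the shortest on top; the vertical line separates the control from the knockout libraries and colours end at -1 and 1. The column of control library 2 is mostly blue, with a median of -0.27, and the strongest colours are in the short genes on top.

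Rpl41 encodes the smallest ribosomal protein, a basic peptide of 25 residues in the large subunit, and was the gene of smallest p. It had 245, 198 and 186 CPM in control libraries 1 to 3 and 312, 393 and 384 CPM in knockout libraries 1 to 3. All knockout values lay above all control values. The means were 210 ± 31.3 CPM and 363 ± 44.5 CPM (SD, n = 3 each), and the log2 fold change was 0.79 (SE 0.15) with an unadjusted edgeR p of 0.000283 and an adjusted p of 0.997. Its adjusted p was 0.0029 with DESeq2, 0.000619 in edgeR without an expression filter and 0.0027 in the authors' deposited table, where it was the only ribosomal protein gene with an adjusted p under 0.05 and where 0.0828% of the genes with an adjusted p were called higher and 0.12% lower. In DESeq2 0.0772% of the 11657 genes with an adjusted p were called higher and 0.103% lower. Without the filter edgeR called 0.0983% of all 20336 genes higher and 0.0885% lower. Leaving out single libraries gave log2 fold changes of 0.72 to 0.92. Unlike most members of the class, Rpl41 had its lowest value in control library 3.

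The coding sequence of Rpl41 (GRCm38 chr10:128548114-128549305, minus strand) is shown because a second row of the table, Gm10076, contains it whole. Gm10076 (chr14:105681828-105682211, plus strand) is annotated as a long intergenic noncoding RNA, and 0 of the 75 coding bases differ between both.
Rpl41: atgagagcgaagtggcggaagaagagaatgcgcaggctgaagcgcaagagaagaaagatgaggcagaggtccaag
Gm10076 had 29.8, 26.0 and 85.2 CPM in the control and 26.4, 6.39 and 5.04 CPM in the knockout. It was highest in control library 3, where Rpl41 was lowest, and lowest in knockout libraries 2 and 3, where Rpl41 was highest. The sum of both rows was 275, 224 and 271 CPM in the control and 338, 400 and 389 CPM in the knockout, still without overlap of the groups. With both rows summed before the fit the log2 fold change was 0.55 (SE 0.14), with an edgeR adjusted p of 0.998. The sources do not say how reads matching several genes were handled, so the level of Rpl41 alone is uncertain.

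Rps27 encodes a zinc-finger protein of the small subunit, and Rps27rt is an intronless copy of it that is annotated as protein-coding. Rps27rt had the widest difference of the class, with 24.3, 16.4 and 57.7 CPM in the control and 88.3, 70.4 and 119 CPM in the knockout. The groups did not overlap, but control library 3 stood closer to the knockout than to the other controls. The log2 fold change was 1.498 (SE 0.51), with an unadjusted edgeR p of 0.0268 and an adjusted p of 0.997, and it ranged from 1.18 to 2.19 when single libraries were left out. Rps27 itself had 193, 148 and 239 CPM in the control and 224, 234 and 179 CPM in the knockout, with a log2 fold change of 0.13 (SE 0.18), and its groups overlapped. With all near copies summed into Rps27 before the fit the log2 fold change was 0.43 (SE 0.19), with an edgeR adjusted p of 0.998. Together both rows held 218, 165 and 296 CPM in the control and 312, 305 and 298 CPM in the knockout. In knockout library 3 the parent was lowest of its group and the copy highest, while the sums of the 3 knockout libraries lay within 298 to 312 CPM, just above the highest control.

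All 252 coding bases of Rps27 and Rps27rt are the same, and 1.63% of the stretches of 100 bases in the Rps27 transcript, the smallest share among the 84 genes, occur in no other annotated transcript. The start regions are shown because they carry the end of the likeness between both genes. They come from RefSeq (GRCm38.p6), 40 bases before to 25 bases after the annotated start, with the bases after the start in capitals. The Rps27 region is chr3:90213624-90213688 and the Rps27rt region is chr9:114982715-114982779, both on the minus strand.
Rps27: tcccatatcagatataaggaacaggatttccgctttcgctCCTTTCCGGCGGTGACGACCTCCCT
Rps27rt: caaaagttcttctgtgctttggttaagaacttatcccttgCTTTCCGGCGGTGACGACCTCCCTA
After the start an identical run of 38 bases begins, shifted by 1 base, and it opens with CTTTCC, a pyrimidine run of the TOP kind. Before the start, 53 of 250 bases are identical at the same shift. The copy thus shares the transcribed part with its parent and not the sequence upstream of it.

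Rps3a1 had the lowest log2 fold change of the class, with 999, 834 and 940 CPM in the control and 939, 545 and 582 CPM in the knockout. Knockout library 1 lay with the controls and only knockout libraries 2 and 3 were lower, so the groups overlapped, and the log2 fold change was -0.42 (SE 0.20). The processed pseudogenes Rps3a2 and Rps3a3 differ from the coding sequence of Rps3a1 at 4 of 792 and 8 of 791 aligned bases. Rps3a2 had 5.87, 4.64 and 5.90 CPM in the control and 7.23, 180 and 165 CPM in the knockout. Rps3a3 had 4.43, 3.65 and 3.42 CPM in the control and 3.91, 140 and 137 CPM in the knockout. Both copies were high in exactly the libraries in which Rps3a1 was low. The sum of the 3 rows was 1009, 842 and 950 CPM in the control and 950, 865 and 884 CPM in the knockout, a highest-to-lowest ratio of 1.20 against 1.83 for Rps3a1 alone. When all near copies were summed into it before the fit, the log2 fold change of Rps3a1 was -0.05 (SE 0.13).

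A stretch of 60 coding bases that holds 2 of the differences, marked in capitals, shows how little separates reads of Rps3a1 (chr3:86137940-86142702, minus strand) from those of Rps3a2 (chr14:88123017-88123808, minus strand) in GRCm38.
Rps3a1: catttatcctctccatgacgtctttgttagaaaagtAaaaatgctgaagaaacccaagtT
Rps3a2: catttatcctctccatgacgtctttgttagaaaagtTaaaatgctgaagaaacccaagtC
A second stretch of 60 bases sets Rps3a1 against Rps3a3 (chr13:108670603-108671397, plus strand), again with the differing bases in capitals.
Rps3a1: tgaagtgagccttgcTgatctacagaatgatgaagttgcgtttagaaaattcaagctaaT
Rps3a3: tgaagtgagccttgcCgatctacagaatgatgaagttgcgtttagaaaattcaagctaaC

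Rps26, whose protein lies at the mRNA exit channel of the small subunit, had opposite levels of gene and copy in other libraries. It had 356, 288 and 229 CPM in the control and 464, 320 and 223 CPM in the knockout with a log2 fold change of 0.21 (SE 0.27). Its transcribed processed pseudogene Rps26-ps1 had 2.42, 27.3 and 186 CPM in the control and 6.29, 92.6 and 214 CPM in the knockout. The copy was highest in control library 3 and knockout library 3, where Rps26 was lowest in each group. Summed, both rows had 358, 315 and 415 CPM in the control and 470, 413 and 437 CPM in the knockout, a highest-to-lowest ratio of 1.49 against 2.08 for Rps26 alone. The coding sequences differ at 2 of 345 bases, and the first 60 bases hold 1 of these (in capitals) between Rps26 (chr10:128624534-128626747, minus strand) and Rps26-ps1 (chr8:107439131-107439579, minus strand) in GRCm38.
Rps26: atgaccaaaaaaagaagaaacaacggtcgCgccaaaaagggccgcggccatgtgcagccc
Rps26-ps1: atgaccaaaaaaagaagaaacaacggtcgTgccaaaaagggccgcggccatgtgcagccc

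**Figure D4:**
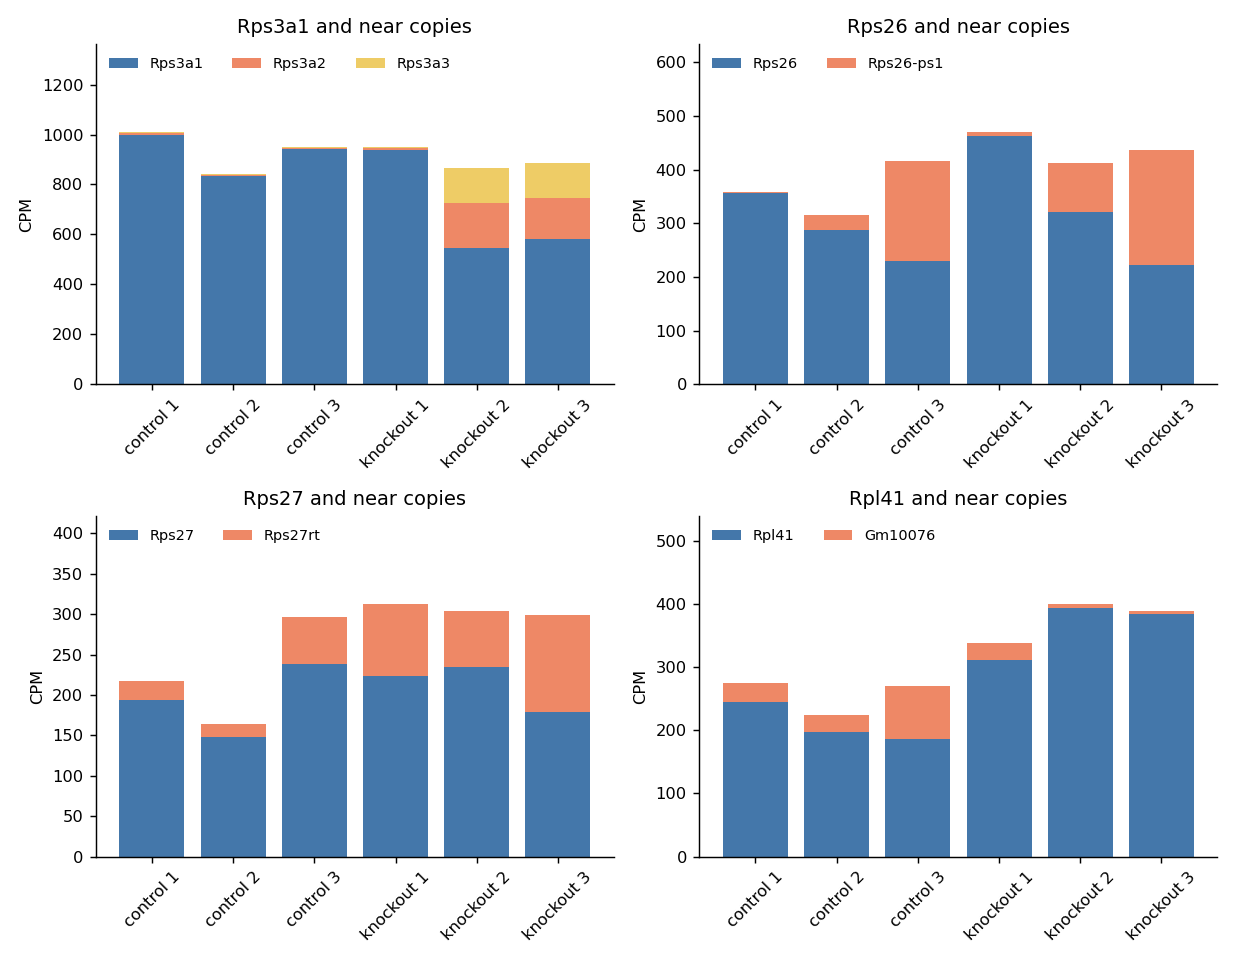
CPM (y axis) of 4 ribosomal protein genes and of the copies named in each legend, stacked, in each of the 6 libraries. In knockout libraries 2 and 3 the copies Rps3a2 and Rps3a3 are high where Rps3a1 is low, and the stacked Rps3a1 bars span 842 to 1009 CPM.

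Near copies were the rule in this class. In GENCODE M21, 66 of the 84 genes had at least 1 other annotated transcript that shared 25% or more of their stretches of 31 bases, and 18 had none. Such near copies made up 264 further rows of the table, 248 of them pseudogenes, which together took 0.231% to 0.319% of the counts in a library. A median of 68.4% of the stretches of 100 bases in a gene's transcript occurred nowhere else in the annotation, 26 genes were under 50% and 7 genes were at 100%. With near copies summed into each gene, 82 genes were tested, 0 were called, 69 had higher values in the knockout and the median log2 fold change was 0.12. The number of genes whose highest and lowest library differed by more than 1 log2 unit was 17 for the genes alone and 10 for the sums. The median of this difference over the 82 genes hardly changed, from 0.537 to 0.535 log2 units. Opposite levels of gene and copy were not general. Rpl37 had 122, 101 and 242 CPM in the control and 222, 221 and 207 CPM in the knockout. Its copy Rpl37rt had 14.9, 9.16 and 34.7 CPM in the control and 32.6, 30.0 and 29.4 CPM in the knockout, the same order of libraries. Rpl17 and a copy had opposite orders within the knockout. Rpl17 had 80.3, 114 and 127 CPM in the control and 215, 76.8 and 177 CPM in the knockout, while its copy Rpl17-ps10 had 210, 128 and 220 CPM and 150, 272 and 198 CPM. The sum of both spanned 241 to 347 CPM in the control and 349 to 375 CPM in the knockout. With all its near copies summed, the log2 fold change of Rpl17 was 0.22 (SE 0.13) against 0.55 (SE 0.38) alone. Rpl17 and Rpl17-ps10 were chosen for naming after their values were seen.

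Rpl6l, listed as a processed pseudogene and therefore not counted among the ribosomal protein genes here, differs from Rpl6 at 11 of 871 aligned bases. Of these, 6 fall in 60 bases, shown in capitals for Rpl6 (chr5:121204481-121209241, plus strand) and Rpl6l (chr10:111125851-111126721, plus strand) in GRCm38.
Rpl6: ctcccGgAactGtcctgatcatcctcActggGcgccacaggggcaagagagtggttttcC
Rpl6l: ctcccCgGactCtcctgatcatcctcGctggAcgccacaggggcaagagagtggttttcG
Rpl6l had 35.5, 28.1 and 45.8 CPM in the control and 68.6, 48.6 and 57.6 CPM in the knockout, without overlap. Rpl6 itself, at 656 ± 59.6 CPM and 636 ± 43.3 CPM (SD, n = 3 each), had a log2 fold change of -0.05 (SE 0.13), which became 0.09 with its near copies summed.

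Among the stalk proteins, Rplp0 had a log2 fold change of 0.14 (SE 0.13), Rplp1 of -0.03 (SE 0.15) and Rplp2 of 0.02 (SE 0.13). Rplp1, the most abundant per length, had 818, 614 and 825 CPM in the control and 686, 725 and 800 CPM in the knockout. The knockout values lay inside the range of the control.

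Of the large-subunit proteins with known roles off the ribosome, Rpl5 and Rpl11, which bind MDM2 when ribosome assembly is disturbed, had log2 fold changes of 0.09 (SE 0.13) and 0.14 (SE 0.17). Rpl38, which in mouse embryos is needed to translate a subset of Hox mRNAs, had 72.8, 47.0 and 144 CPM in the control and 127, 129 and 114 CPM in the knockout. Control library 3 was above every knockout, and the log2 fold change of 0.49 (SE 0.39) became 0.19 without control library 2 and 1.05 without control library 3. Rpl13a, known in human myeloid cells as a part of an interferon-induced complex that silences inflammatory mRNAs, had 14.9, 9.86 and 16.7 CPM in the control and 12.6, 15.9 and 11.97 CPM in the knockout. Its groups overlapped throughout. Rpl23a, which lies at the exit of the peptide tunnel, was the gene of smallest p among those with lower values. It had 220, 168 and 191 CPM in the control and 136, 168 and 128 CPM in the knockout. Control library 2 and knockout library 2 all but met, and the log2 fold change was -0.42 (SE 0.15) with an unadjusted edgeR p of 0.0168 and an adjusted p of 0.997. With 13 annotated near copies and 19.96% of its stretches of 100 bases unique, its log2 fold change was -0.38 (SE 0.13) after summing. With both strands counted, 62.3% of its exon bases also belong to other genes.

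Of the small-subunit proteins, Rps6, the substrate of the S6 kinases downstream of mTORC1, had 615, 505 and 723 CPM in the control and 763, 659 and 710 CPM in the knockout. Control library 3 lay among the knockouts, and the log2 fold change was 0.21 (SE 0.15). Rps3, which also binds NF-kappaB in the nucleus, and Rpsa, known also as a laminin receptor, had log2 fold changes of 0.10 (SE 0.14) and 0.09 (SE 0.12). Rps19, the gene most often mutated in the human anaemia named after Diamond and Blackfan, had 0.07 (SE 0.15), and Rps2, at the mRNA entry, had -0.04 (SE 0.12).

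Rps27a, which encodes a ribosomal protein fused to ubiquitin, had 88.4, 75.5 and 146 CPM in the control and 152, 139 and 167 CPM in the knockout. Its log2 fold change was 0.56 (SE 0.22), and control library 3 fell between the lowest and the middle knockout. Rps12 had 228, 173 and 277 CPM in the control and 313, 296 and 277 CPM in the knockout, where control library 3 and knockout library 3 all but met, and its log2 fold change was 0.39 (SE 0.17). Rps12 has 19 annotated near copies, and the row of one of them, Rps12-ps3, had 107 to 144 CPM over the 6 libraries; with near copies summed the log2 fold change was 0.25 (SE 0.14). Rps27a and Rps12 thus split the control group in the same way as the class as a whole.

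The paralogs of ribosomal protein genes were low. Rps27l had 24.0, 23.0 and 36.1 CPM in the control and 34.5, 30.98 and 37.4 CPM in the knockout, with a log2 fold change of 0.31 (SE 0.19) and all of its stretches of 100 bases unique. Rpl22l1 was at 29.5 ± 3.47 CPM and 27.8 ± 0.766 CPM (SD, n = 3 each), next to 173 ± 43.1 CPM and 203 ± 13.7 CPM of its parent Rpl22, and Rpl7l1 was at 66.0 ± 13.4 CPM and 65.6 ± 6.30 CPM. Per length, Rpl22l1 averaged 16.2 FPKM against 72.2 FPKM for Rpl22, and Rpl7l1 averaged 21.1 FPKM against 325 FPKM for Rpl7. Rpl36al, at 0.824, 0.580 and 0.579 CPM in the control and 0.534, 0.126 and 2.05 CPM in the knockout, was near the limit of detection. As given above, 24.5% of its exon bases also belong to another gene on the same strand, and the part of this overlap was not tested.

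The genes with short coding sequences differed most. The 11 genes with a coding sequence of up to 300 bases were Rpl41, Rpl39, Rps29, Rps28, Rpl38, Rps21, Rps27, Rps27rt, Rps27l, Rpl37a and Rpl37. All 11 had higher values in the knockout by the fitted log2 fold change, whose median was 0.49. The 49 genes of over 300 to 600 bases had a median of 0.15, with 41 higher, and the 23 longer genes had a median of 0.06, with 17 higher. The length limits were chosen after the values were seen. Among the other protein-coding genes tested, the medians in the same bins were 0.12 (202 genes, 137 higher), 0.03 (1170 genes, 638 higher) and -0.02 (9863 genes, 4625 higher). Across the 83 genes Spearman's rho between coding length and log2 fold change was -0.46, and across the 11235 other protein-coding genes it was -0.10. Shorter genes were also counted at lower levels (rho of 0.58 between coding length and average log2 CPM), and average log2 CPM had a rho of -0.48 with the log2 fold change. The share of unique stretches of 100 bases and the GC content had a rho of -0.06 and -0.08 with it. Genes share libraries and are not independent replicates, so these values are descriptions.

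The short genes also carried the split of the control group in its widest form. Their median deviation from the gene mean was -0.42, -0.81 and 0.30 in control libraries 1 to 3 and 0.29, 0.35 and 0.29 in knockout libraries 1 to 3. Short protein-coding genes outside the class had medians of -0.16, -0.19 and 0.15 in the control and 0.07, 0.02 and 0.15 in the knockout. In both sets control libraries 1 and 2 were low and control library 3 was not. Of the 11 genes, 10 had control libraries 1 and 2 below every knockout, 10 had their lowest value in control library 2, and 9 had control library 3 at or above the lowest knockout. The same counts were not made for short genes outside the class.

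**Figure D5:**
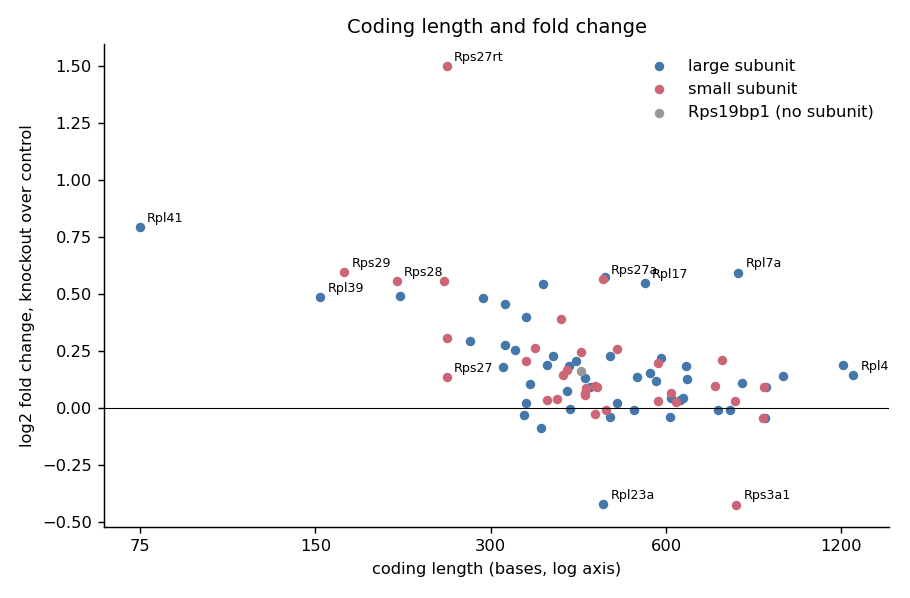
Log2 fold change of knockout over control (y axis) against coding length in bases (x axis, log scale) for the 83 tested genes, coloured by subunit. The 11 genes of up to 300 bases all lie above 0, with a median of 0.49, and the 23 genes of over 600 bases have a median of 0.06.

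Rps29, a zinc-binding protein of the small subunit, shows the split in a single gene. It had 139, 117 and 431 CPM in the control and 328, 327 and 381 CPM in the knockout. The highest and both lowest values were in the control, and the log2 fold change was 0.59 (SE 0.53). It was 0.28 without control library 2 and 1.44 without control library 3. Rps28 had 89.7, 70.3 and 210 CPM in the control and 158, 197 and 188 CPM in the knockout. Rpl30, whose yeast counterpart binds its own transcript, had 63.0, 90.0 and 274 CPM in the control and 172, 171 and 219 CPM in the knockout. In both genes control library 3 was the highest of all 6 and the other controls the lowest. With its 5 near copies summed, Rpl30 had 185, 159 and 282 CPM in the control and 216, 226 and 247 CPM in the knockout, and its log2 fold change was 0.14 (SE 0.19) against 0.40 (SE 0.58) alone. Control libraries 1 and 2 were still lowest and control library 3 highest, but the control values lay closer together. Rps21 had 108, 80.9 and 178 CPM in the control against 176, 185 and 180 CPM in the knockout. Rpl39, a small protein in the wall of the peptide tunnel, had 131, 91.7 and 192 CPM in the control against 200, 200 and 180 CPM in the knockout. For Rps21 and Rpl39 the knockout values were close together and control library 3 lay among them, with log2 fold changes of 0.56 (SE 0.25) and 0.48 (SE 0.23).

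Promoter sequences were in the RefSeq table (GRCm38.p6) for 64 of the 84 genes, from 250 bases before to 50 bases after the start. The word CTTTCC, as at the start of Rps27rt, was found on the transcribed strand between 20 bases before and 30 bases after the start in 20.3% of the 64 genes and in 2.83% of all 27025 genes of the table. Over the whole window and both strands the shares were 54.7% and 29.3%. The word CTTCCG, whose reverse complement CGGAAG is the core bound by ETS family factors, was found over the whole window and both strands in 68.8% of the 64 genes and in 18.8% of all genes. The 2 words can overlap by shared end bases. Their presence describes the sequence and shows no binding.

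Related genes were read from lists in the same fit, in which 0 genes passed the edgeR test. Of 18 tested genes of the elongation and TOP class, 13 were higher and 5 lower in the knockout; their median log2 fold change was 0.06. Eef1a1, the elongation factor that delivers aminoacyl-tRNA, had 0.02 (SE 0.13), Rack1, the scaffold on the small subunit, had 0.06 (SE 0.13), and Tpt1 had 0.06 (SE 0.14). Fau had 0.03 (SE 0.15). Among the genes of smallest p in this list were Hnrnpa1, an RNA-binding protein, at 0.26 (SE 0.17), and Naca, which shields nascent chains, at 0.16 (SE 0.13).

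Of 32 ribosome biogenesis genes, 12 were higher and 20 lower in the knockout (median -0.03). Polr1a and Polr1b, the large subunits of RNA polymerase I, had -0.29 (SE 0.14) and -0.34 (SE 0.18), and the nucleolar helicase gene Ddx21 had -0.35 (SE 0.17). Polr1a had 67.8, 75.8 and 68.9 CPM in the control and 49.6, 57.8 and 66.5 CPM in the knockout, without overlap. Of 25 regulators on the mTORC1, LARP1 and MYC axis, 7 were higher and 18 lower (median -0.05). The MAX partner Mnt, which opposes MYC, had 37.8, 38.8 and 29.7 CPM in the control and 21.5, 32.7 and 19.8 CPM in the knockout. Its groups overlapped, and the log2 fold change was -0.53 (SE 0.21). The cap-binding gene Eif4e had -0.30 (SE 0.16), Tial1, which binds TOP mRNAs in stress, 0.28 (SE 0.16), Myc -0.09 (SE 0.25) and Larp1 -0.05.

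Of 14 tested genes of ribosome surveillance and the Trp53 pathway, 4 were higher and 10 lower (median -0.05). Ltn1, the ligase for stalled nascent chains, had -0.29 (SE 0.13), and Gcn1l1, a sensor of colliding ribosomes, had -0.30 (SE 0.16). Pelo, a ribosome rescue factor, was at 0 to 1.51 CPM, too low to weigh its -1.54 (SE 1.03). The 77 mitochondrial ribosomal protein genes, which serve another ribosome, had 41 higher and 36 lower values and a median of 0.01. Their genes of smallest p were Mrpl13 with 0.60 (SE 0.25), Mrpl42 with 0.39 (SE 0.20) and Mrpl23 with 0.37 (SE 0.19). Their median thus lay closer to that of all genes, -0.01, than to that of the cytosolic class, 0.14; the difference between both classes was not tested.

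Of the ribosomal protein genes, 69 of 84 had a positive log2 fold change in the authors' deposited table, as did 47.7% of all its genes (52.3% were lower). That table gave an unadjusted p under 0.05 to 8 ribosomal protein genes with higher and 2 with lower values, against 1.69% and 1.59% of all its genes. These shares are over 20330 rows, weakly expressed genes included, whereas 83 of the 84 ribosomal protein genes passed edgeR's filter. The sets are therefore not alike.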

How the data were processed

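PolyA RNA of sorted large peritoneal macrophages was sequenced in 6 libraries (NEBNext Ultra II kit), grouped by the genotype in the titles. Raw counts per gene are as deposited: per the submitters' processing notes, the authors aligned reads to mm10 (GRCm38) using HISAT2 2.0.5 and counted them using featureCounts 1.5.0-p3. Which annotation release and strand setting were used, and what became of reads matching several genes, the sources used here do not state. Per the labels' protocols, the authors derived FPKM values from the reads and the length of each gene. The deposited normalised signal is, as found from the values, the count divided by a constant per library. The log2 fold changes and p-values of the deposited table are the authors' own. Only counts were tested.

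Genes were filtered with filterByExpr (12786 of 20336 kept), scaled by TMM and tested with the robust quasi-likelihood test of edgeR 4.0.16 (R 4.3.3) on genotype alone, adjusted over all tested genes by Benjamini-Hochberg with a threshold of 0.05. The test was checked on counts simulated from the means, totals and dispersions of these libraries. That simulation held no shift shared by many genes of a library, so it does not cover such shifts. CPM use TMM-scaled totals. With 3 counts as the limit that a count of 0 allows, a gene at 0 could hold up to 0.154 to 0.190 CPM; this covers counting error only. No pair of libraries agreed within sampling noise (chi-square per gene at least 25.3). Near copies are GENCODE M21 transcripts that share at least 25% of a gene's stretches of 31 bases.

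The genes, the lists and the rule for named genes were chosen with earlier results of these data known. The rule named Tmem206, the 6 tested genes of smallest p per direction, the 5 of highest and of lowest FPKM, the 4 of widest range within a group, genes with set roles, paralogs with their parents, and the 3 of smallest p per related list; Rpl17, Rps26, Rps28, Rpl26, Rpl31, Rpl37, Rpl37a and the near copies other than Rps27rt and Rpl6l were named after their values were seen. The values of 1 gene that the rule named are not reported here. Alternatives were DESeq2 1.42.0, limma-voom (limma 3.58.1), other scalings and filters, a replicate block, each library left out and, added after seeing the data, near copies summed into each gene.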

Additional observations from a re-analysis of the deposited data

How the results depend on the processing

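The count of called ribosomal protein genes was 0 in edgeR under the other scalings, the stricter filter (at least 1 CPM in 3 libraries), the replicate block, limma-voom and near copies summed. It was 1 (Rpl41) with no filter and 1 with DESeq2. Leaving out single libraries gave 0 to 5 calls, the 5 without control library 3. The median log2 fold change of the class stayed within 0.12 to 0.16 under the settings that kept all libraries and spanned 0.04 to 0.24 with single libraries left out, lowest without control library 2. The replicate numbers do not pair the libraries: same-number correlations of deviations were -0.05, -0.06 and 0.08. The deposited sample names number control library 3 and knockout library 3 as A20 and A21, and the other libraries from A4 to A12. What these numbers stand for is not stated. The replicate block gave a median of 0.14 and changed no call. Over the named genes and settings 532 values kept direction and call, 5 gained a call and 31 changed sign. With limma-voom Rplp1 became 0.015, Rpl13a 0.077, Rpl7l1 0.011 and Rpl36al -0.47. The replicate block gave -0.16 for Rpl36al and 0.0056 for Rpl7l1, and near copies summed gave 0.091 for Rpl6. Leaving out single libraries gave ranges of -0.15 to 0.015 for Rpl22l1, -0.10 to 0.033 for Rpl6, -0.16 to 0.044 for Rplp1, -0.056 to 0.15 for Rps15, -0.98 to 0.96 for Rpl36al, -0.24 to 0.74 for Rps10, -0.080 to 0.46 for Rps19bp1, -0.23 to 0.12 for Rpl13a, -0.035 to 0.10 for Rplp2, -0.054 to 0.20 for Rps19, -0.023 to 0.32 for Rps27, -0.11 to 0.17 for Rpl7l1, -0.013 to 0.10 for Rpl10 and -0.041 to 0.10 for Rps4x. The cause was not tested. Tmem206 kept its sign, with -0.94 to -0.45 over single libraries left out.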
